A study of Mus musculus with 7 samples.

Results

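The clustered Hox genes are the 39 protein-coding genes whose symbols are Hoxa, Hoxb, Hoxc or Hoxd followed by a number. They were taken by symbol from the 46603 gene rows of the count tables, without antisense or opposite-strand genes, and all 39 were found. They were measured by RNA sequencing in TRAMP-C1, a mouse prostate tumour line labelled prostate epithelial, made from mice of the strain C57BL/6-TgN(TRAMP)8247Ng, whose transgene has a prostate promoter and drives tumours. Every library therefore shares the TRAMP background.

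The study compared cells given a PAX8-NFE2L2 fusion gene (3 libraries) with cells given the matching empty vector (EV, 3 libraries), both in the lentiviral plasmid Lv229. PAX8 controls genes of the developing thyroid and kidney, and NRF2, the product of NFE2L2, those of the antioxidant response. Cells had virus for 12 h and then fresh medium for 24 h. A further library is labelled WT, with no vector in its title, and it carries the same protocol text as the others, so how it was treated is not known here. No label says what share of the cells took up the vector, that cells were selected or cloned, or that each replicate was a culture of its own. The p-values therefore measure spread between these samples only, and that spread may be technical.

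Hox genes encode homeodomain transcription factors that tell cells of the embryo where they lie along the head-to-tail axis and along the limb. They stand in clusters in which low-numbered (anterior) genes lie at one end and high-numbered (posterior) genes at the other, and genes of the same number in different clusters are paralogs. Adult cells often keep a pattern that reflects where they arose. The group 13 genes Hoxa13, Hoxb13 and Hoxd13 take part in prostate development, and Hoxb13 marks prostate epithelium.

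On the mouse build GRCm38 the HoxA cluster lies at chr6:52155590-52260880 on the minus strand with 11 members. HoxB lies at chr11:96194316-96368256 on the plus strand with 10 members. HoxC lies at chr15:102921103-103036852 on the plus strand with 9 members, and HoxD at chr2:74668310-74765142 on the plus strand with 9 members.

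Promoter sequence is shown for 4 posterior genes: the neighbours Hoxa11 and Hoxa13, which had the lowest unadjusted p-values of the members between fusion and EV, and the neighbours Hoxd12, without a read in any library, and Hoxd13, read in every library. Each is the 250 bases before the transcription start that RefSeq gives on GRCm38.p6, 5′ to 3′ on the gene's own strand, with every CpG dinucleotide in capitals. The windows lie at chr6:52245811-52246060 (minus strand) for Hoxa11, chr6:52260881-52261130 (minus strand) for Hoxa13, chr2:74674763-74675012 (plus strand) for Hoxd12 and chr2:74667975-74668224 (plus strand) for Hoxd13.
Hoxa11: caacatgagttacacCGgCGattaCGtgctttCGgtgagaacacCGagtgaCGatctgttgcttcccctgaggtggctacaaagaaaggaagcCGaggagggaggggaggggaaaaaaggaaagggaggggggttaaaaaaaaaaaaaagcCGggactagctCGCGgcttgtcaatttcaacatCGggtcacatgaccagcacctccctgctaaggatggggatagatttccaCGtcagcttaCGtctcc
Hoxa13: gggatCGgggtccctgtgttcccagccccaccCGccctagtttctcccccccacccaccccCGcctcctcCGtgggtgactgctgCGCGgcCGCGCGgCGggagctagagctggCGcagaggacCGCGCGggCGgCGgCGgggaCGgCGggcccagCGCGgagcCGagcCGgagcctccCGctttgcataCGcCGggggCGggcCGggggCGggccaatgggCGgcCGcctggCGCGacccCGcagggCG
Hoxd12: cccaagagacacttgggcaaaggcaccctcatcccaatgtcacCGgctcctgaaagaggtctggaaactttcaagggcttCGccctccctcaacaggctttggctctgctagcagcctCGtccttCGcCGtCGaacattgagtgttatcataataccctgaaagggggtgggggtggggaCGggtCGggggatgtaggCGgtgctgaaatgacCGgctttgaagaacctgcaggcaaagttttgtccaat
Hoxd13: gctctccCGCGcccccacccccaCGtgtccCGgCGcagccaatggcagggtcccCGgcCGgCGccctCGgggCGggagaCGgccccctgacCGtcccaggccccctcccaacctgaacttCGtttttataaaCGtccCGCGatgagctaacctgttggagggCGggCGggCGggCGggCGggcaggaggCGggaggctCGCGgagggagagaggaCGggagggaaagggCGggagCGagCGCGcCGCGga

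These windows hold 13 CpG dinucleotides for Hoxa11, 35 for Hoxa13, 10 for Hoxd12 and 31 for Hoxd13. RefSeq's promoter table matched 22 of the 39 genes, with 24 windows. The ratio of observed to expected CpG had a median of 0.721 in the 24 Hox windows and 0.373 in all 32851 windows of the table. It was 0.76 in the 11 windows of Hox genes on in every library (on is defined with the levels) and 0.52 in the 11 windows of Hox genes on in none. The motif TGACNNNGC, the core of the antioxidant response element that NRF2 binds, was searched on both strands of the same windows. It occurred in 1 of the 24 Hox windows, that of Hoxa6 (4.17%), and in 10.2% of all windows. TATAAA occurred in 4 of the 24, those of Hoxa10, Hoxb8, Hoxd4 and Hoxd13 (16.7%), and in 12.4% of all windows. TGATNNAT, a site of the kind that Hox and PBX proteins bind together, occurred in 4 of the 24, those of Hoxa2, Hoxb1, Hoxb8 and Hoxd11 (16.7%), and in 7.68% of all windows. The 3 motifs are not the same letters, although their matches can overlap. A match is a description of the sequence only.

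Reads assigned to genes numbered 26368182 to 59597170 per library, lowest in fusion replicate 3. Mouse Pax8 reads, which check the labels, lay at 0.0401 CPM (counts per 1000000) in WT, 0.0334 to 0.217 CPM in EV and 5.57 to 8.53 CPM in fusion. The files do not say from which species the construct's PAX8 sequence was taken. The labelled prostate epithelial cell type was checked with markers. Of 18 prostate epithelial markers 2 were on in all 7 libraries. Krt19 was the highest of this list, at a median of 20.5 CPM per kb. Pbsn had 4 reads in all libraries together, Msmb 0 and Hoxb13 8. Of 14 mesenchymal or fibroblast markers 13 were on in all 7 libraries, led by Col1a1, a collagen chain. The summed prostate list was 175 CPM in WT, 147 to 174 in EV and 128 to 166 in fusion, and the summed mesenchymal list 21530, 14160 to 19290 and 10950 to 16480. The libraries are therefore called TRAMP-C1 cells below, without a cell type.

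Levels are compared between genes as CPM per kb of exon, scaled by TMM over the 7 libraries, and a gene is called on at 1 CPM per kb or more. In every library the on genes lay in 3 of the 4 clusters, and the set of on genes differed between libraries. Of the 39 members 14 were on in all 7 libraries, 6 in some and 19 in none. The 14 included Hoxa5, Hoxa6, Hoxa7, Hoxa9, Hoxa10, Hoxa11 and Hoxa13, Hoxb4, Hoxb6, Hoxb7 and Hoxb9, and Hoxd8 and Hoxd9. WT had 17 on, EV 19, 20 and 20, and fusion 18, 19 and 15 in replicates 1, 2 and 3. The lowest number stood in fusion replicate 3, which is also the shallowest library. Counted over the longest transcript in place of all exons, the numbers were 19 in WT, 21, 21 and 21 in EV, and 20, 20 and 15 in fusion. Hoxa3 was then on in 6 libraries in place of 0, and Hoxb3 in 7 in place of 5. In bulk RNA, fewer cells that express a gene and less RNA per cell cannot be told apart.

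**Figure D1:**
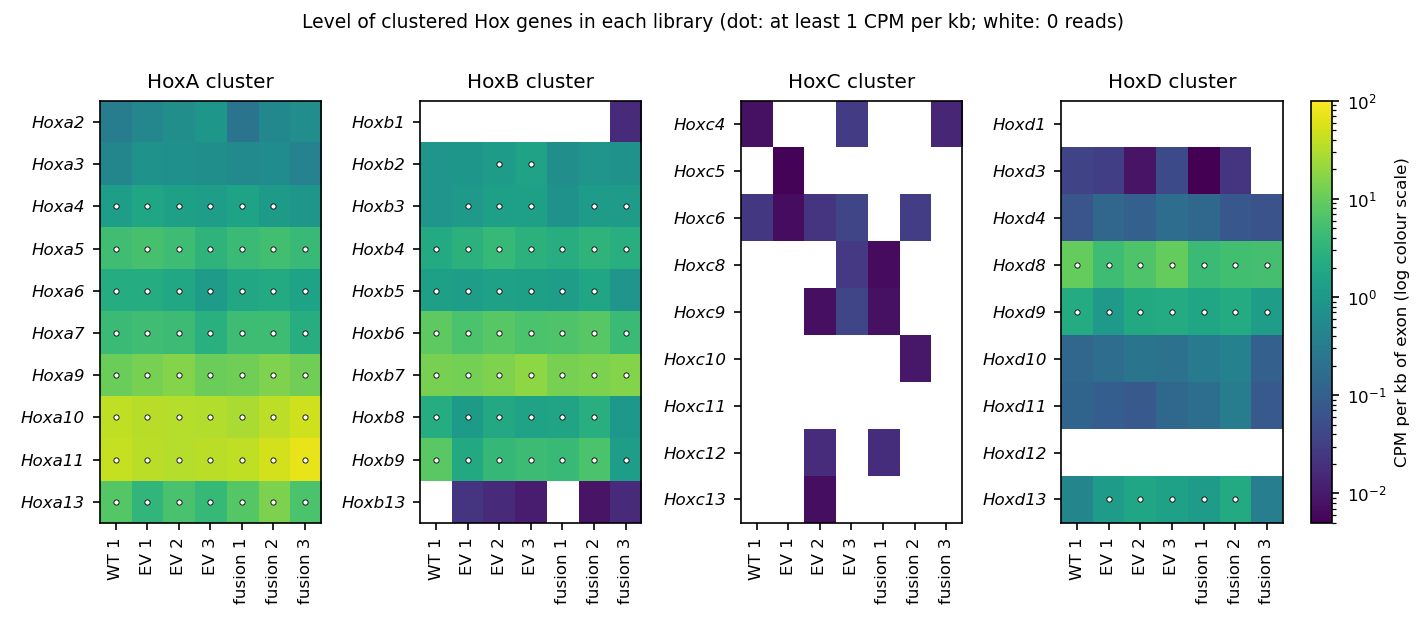
Level of 38 of the Hox genes (rows, by cluster and number) in each of the 7 libraries (columns) as colour on a log scale in CPM per kb of exon, with a dot at 1 CPM per kb or more and white at 0 reads. HoxA has dots in most rows but none at Hoxa2 and Hoxa3, HoxC is nearly empty with 35 reads in all, and HoxD is split into Hoxd8 and Hoxd9 and, past a gap, Hoxd13.

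HoxA held most of the Hox RNA. Its summed level was 114 CPM per kb in WT, 101 ± 5.49 in EV and 128 ± 24.8 in fusion (mean ± SD, n = 3 each). HoxB summed to 37.6 in WT, 34.0 ± 5.38 in EV and 31.9 ± 5.09 in fusion, and HoxD to 12.6, 10.6 ± 3.29 and 8.36 ± 1.49. HoxC summed to 0.0328, 0.0666 ± 0.0614 and 0.0292 ± 0.0131. HoxA made up 64.5 to 81.0% of the summed Hox level in a library, and the highest share stood in fusion replicate 3. These sums are descriptions and carry no test.

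Within HoxA the level climbed towards the posterior genes and fell again at Hoxa13. Hoxa11, a posterior gene of limb and urogenital development, had 42.1 CPM per kb in WT, 35.4, 32.8 and 36.4 in EV and 38.7, 51.7 and 72.2 in fusion. Hoxa10, used in the male and female reproductive tract, had 39.0025 in WT, 35.0, 33.0 and 31.6 in EV and 28.0, 37.3 and 48.2 in fusion. These neighbours overlapped in range and were the highest Hox genes in each library; by their median level Hoxa11 stood at percentile 91.9 and Hoxa10 at percentile 90.7 of the genes tested. Hoxa9, a gene also known from blood progenitors, had 10.8 in WT, 12.9, 15.8 and 11.0 in EV and 11.8, 14.8 and 11.5 in fusion. Hoxa9 to Hoxa13 together made up 83.0 to 92.6% of the HoxA level.

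The other HoxA genes were lower. Hoxa5 ranged over 3.13 to 5.65 CPM per kb and Hoxa7 over 2.37 to 4.75. Their ranges overlapped, and no order between them held beyond the spread. Hoxa6 ranged over 1.13 to 2.33. Hoxa4 ranged over 0.939 to 1.75 and was on in 6 libraries, all but fusion replicate 3. Over all exons the cluster's minimum was Hoxa2 (0.225 to 0.963) and Hoxa3 (0.411 to 0.764), both under the threshold in every library. For Hoxa3 this depends on the length used: over the longest transcript it ranged over 0.953 to 1.77 and was on in 6 libraries. Hoxa2 and Hoxa3 share exon bases with Gm28308, a readthrough gene model on the same strand, and Hoxa7 shares 20.4% of its exon bases with the opposite-strand Hoxaas3. No source used here gives the strand setting of the counts. Reads of opposite-strand neighbours may therefore be mixed in or, in shared bases, left out as ambiguous. Reads in bases shared with a same-strand model may likewise have been left out.

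**Figure D2:**
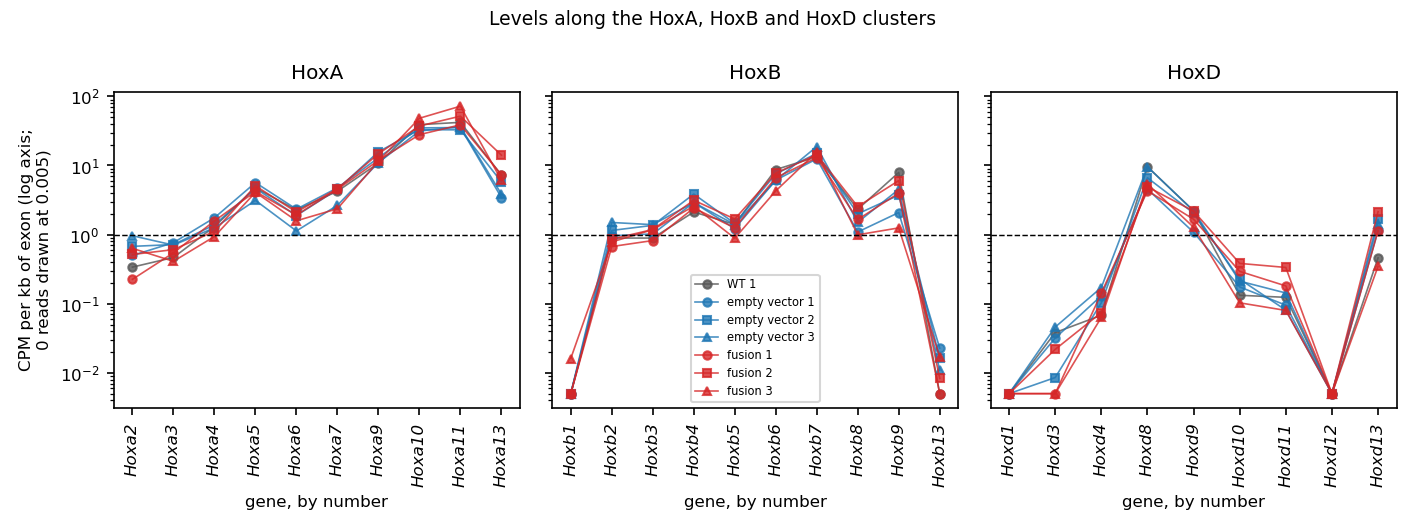
CPM per kb of exon (log axis) along HoxA, HoxB and HoxD by gene number, 1 line per library with WT in grey, EV in blue and fusion in red, 0 reads drawn at 0.005 and the dashed line at 1. The 7 lines have similar shapes in each cluster, with peaks at Hoxa10 and Hoxa11, at Hoxb7 and at Hoxd8, and among the genes on in some library they are widest at Hoxb9 (1.25 to 7.93) and Hoxd13 (0.346 to 2.15).

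HoxB was highest in its middle. Hoxb7 had 13.4 CPM per kb in WT, 12.5, 14.98 and 18.8 in EV and 13.0, 14.3 and 15.7 in fusion, and it was the highest HoxB gene in each library. Hoxb6 had 8.72 in WT, 6.13, 7.54 and 6.09 in EV and 6.64, 7.75 and 4.29 in fusion. Hoxb4, known for its use in blood stem cells, ranged over 2.12 to 3.86. Hoxb5 (0.886 to 1.68), Hoxb8 (0.994 to 2.54) and Hoxb3 (0.820 to 1.39) lay around the threshold, on in 6, 6 and 5 libraries. Hoxb2 had 0.891 in WT, 0.963, 1.15 and 1.497 in EV and 0.672, 0.861 and 0.783 in fusion, so it was on in EV replicates 2 and 3 only. The opposite-strand gene Hoxb3os shares 52.9% of the exon bases of Hoxb3 and 27.3% of those of Hoxb2.

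Hoxb9 varied more than its neighbours. It had 7.93 CPM per kb in WT, 2.08, 3.72 and 4.51 in EV and 3.97, 6.05 and 1.25 in fusion. WT lay above all 6 transduced libraries, and fusion replicate 3 below them. The ends of the cluster were near 0: Hoxb1 had 1 read in all libraries together, and Hoxb13 had 8, at 0 to 0.0227 CPM per kb.

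HoxD was on in patches. Hoxd8 had 9.57 CPM per kb in WT, 4.55, 6.63 and 9.57 in EV and 4.31, 4.91 and 5.41 in fusion. Hoxd9 had 2.20 in WT, 1.08, 2.05 and 2.21 in EV and 1.67, 2.19 and 1.28 in fusion. Past this pair the level dropped to 0.103 to 0.383 at Hoxd10 and 0.0799 to 0.335 at Hoxd11, and to 0 reads at Hoxd12. It returned at Hoxd13, a gene of digits and of the genital tract, with 0.460 in WT, 1.15, 1.66 and 1.42 in EV and 1.14, 2.15 and 0.346 in fusion. Hoxd13 was thus on in 5 libraries, all but WT and fusion replicate 3. On the anterior side Hoxd4 ranged over 0.0634 to 0.171 and Hoxd3 over 0 to 0.0459, and both share exon bases with the same-strand readthrough model Gm28230 (53.1% of Hoxd3 and 39.1% of Hoxd4). Hoxd1 had no read.

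HoxC was at or near 0 throughout. Its 9 members had 35 reads in the 7 libraries together, 1 to 14 per library, and EV replicate 3 had the 14. Hoxc6 had 15 of these reads and Hoxc9 had 6. Hoxc11, Hoxd1 and Hoxd12 had 0 counts in every library, which allows up to 0.0088 CPM over the 7 libraries (3 counts, counting error only). Hotair, the noncoding RNA made from the HoxC cluster, was also at 0 reads in every library.

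The paralog groups drew on different clusters. In groups 10 and 11 HoxA gave at least 98.96% of the summed level in every library, from Hoxa10 and Hoxa11. In group 7 HoxB gave 72.4 to 87.6%, from Hoxb7, and in group 6 it gave 72.4 to 83.9%, from Hoxb6. In group 8, which HoxA lacks, Hoxd8 gave 65.9 to 86.2%. In group 9 Hoxa9 gave 51.6 to 82.03%, with Hoxb9 and Hoxd9 giving most of the rest. In group 13 Hoxa13 gave 72.9 to 94.4% and Hoxd13 gave 5.35 to 26.9%, while Hoxb13 gave at most 0.493%. Group 12, with Hoxc12 and Hoxd12, had 2 reads in all.

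The comparison of fusion with EV asks what the fusion gene changes. No Hox gene passed the test in the comparison without pairing. The low-count filter kept 25 of the 39 members: 11 of HoxA, 8 of HoxB, 0 of HoxC and 6 of HoxD. By edgeR's quasi-likelihood test 0 of these 25 had an adjusted p under 0.05, where 2.04% of all 16731 tested genes did (1.69% higher and 0.353% lower). DESeq2 also called 0 of the 25, and 5.51% of all tested genes. At an unadjusted p under 0.05 edgeR gave 2 of the 25, Hoxa11 and Hoxa13, and 10.9% of all tested genes. Of the 25 log2 fold changes 8 lay above 0 and 17 below, with a median of -0.08 against 0.01 over all tested genes. They ran from -0.65 at Hoxa2 to 1.07 at Hoxa13.

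Hoxa13 (ENSMUSG00000038203.17) was higher in each fusion library than in each EV library. It had 17.9 CPM in WT, 8.49, 14.4 and 9.53 in EV and 18.2, 34.9 and 15.1 in fusion, with means of 10.8 ± 3.13 in EV and 22.7 ± 10.6 in fusion (SD, n = 3). WT lay above all EV libraries and among the fusion libraries. The log2 fold change was 1.07 (SE 0.36, edgeR adjusted p = 0.264, DESeq2 adjusted p = 0.0835). Without fusion replicate 2, the highest library, it was 0.63 (adjusted p = 0.628).

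Libraries of the same replicate number deviated together from their group means, and for this reason the number was also used as a block. No label states that the samples were paired, so the block rests on the same libraries that it is applied to. With the replicate number as a block, 1 of the 25 members passed, Hoxa13, where 13.1% of all tested genes passed (7.63% higher and 5.5% lower). Its blocked log2 fold change was 1.02 (SE 0.15, edgeR adjusted p = 0.00868), and the ratio was higher in 3 of 3 numbers (log2 1.097, 1.28 and 0.67). The blocked edgeR fit gave adjusted p = 0.00049 on numbers 1 and 2, 0.0199 on numbers 2 and 3 and 0.0988 on numbers 1 and 3. Of all tested genes 19%, 9.2% and 2.46% passed in these splits. The splits share libraries and are not separate support, and the last 2 were chosen after seeing the data. Each split leaves few libraries to estimate a gene's own spread, so its p-values lean on the spread pooled over genes. So the rise of Hoxa13 passed in the fit with this block, inferred from the data, and not in the fit without it. The summed level of 14 mesenchymal markers ran lower in fusion than in WT and overlapped EV, and 4 of them, Col3a1, Dcn, Lum and Fap, fell in the blocked fit; their part in the Hoxa13 result was not tested.

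Hoxa11 (ENSMUSG00000038210.10), the neighbour of Hoxa13, likewise did not overlap between the groups. It had 96.3 CPM in WT, 81.0, 75.1 and 83.2 in EV and 88.6, 118 and 165 in fusion, with means of 79.8 ± 4.21 in EV and 124 ± 38.5 in fusion. The difference lay mostly in fusion replicates 2 and 3. The log2 fold change was 0.64 (SE 0.25, edgeR adjusted p = 0.368), or 0.59 (SE 0.17, adjusted p = 0.0831) with the block. With the block it passed on numbers 2 and 3 (0.78, adjusted p = 0.00798), where 9.2% of all tested genes passed and 3 members did: Hoxa11, Hoxa13 and, lower, Hoxd8 (-0.67, adjusted p = 0.0456). On numbers 1 and 3 with the block 0 of the members and 2.46% of all tested genes passed. Hoxa11os, an opposite-strand noncoding gene over 35% of the exon bases of Hoxa11, had 37.1 CPM in WT, 40.3, 43.0 and 40.2 in EV and 40.4, 61.4 and 76.2 in fusion. Its log2 fold change was 0.53 (edgeR adjusted p = 0.528), and like Hoxa11 it was highest in fusion replicates 2 and 3.

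Hoxa3 and Hoxb2 were the members in which each fusion library lay below each EV library. Hoxa3 had 2.81 CPM in WT, 4.60, 4.31 and 4.24 in EV and 3.28, 3.64 and 2.47 in fusion, a log2 fold change of -0.48 (SE 0.27, edgeR adjusted p = 0.635). Hoxb2 had 3.11 CPM in WT, 3.36, 4.01 and 5.22 in EV and 2.34, 3.003 and 2.73 in fusion, a log2 fold change of -0.64 (SE 0.29, adjusted p = 0.477). With the block the adjusted p was 0.142 for Hoxa3 and 0.0903 for Hoxb2, so neither passed. Of the 25 members 2 thus lay wholly above and 2 wholly below, where 9.15% of all tested genes lay wholly above and 6.65% wholly below.

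**Figure D3:**
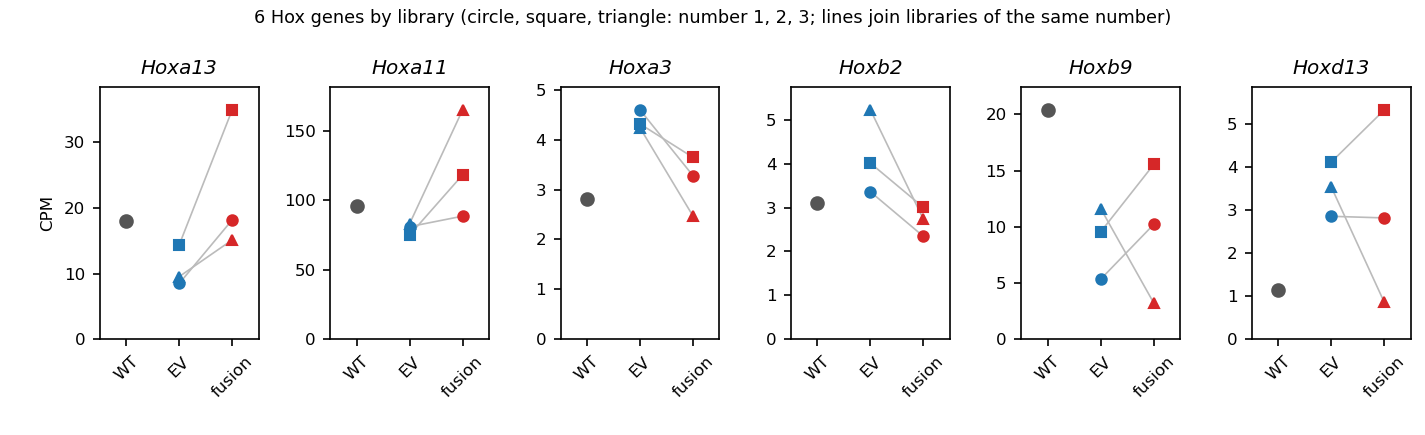
CPM (from 0, a scale for each panel) of 6 Hox genes in WT, EV and fusion, with circles, squares and triangles for replicates 1, 2 and 3 and lines joining libraries of the same number. All 3 lines rise for Hoxa13 and Hoxa11 and all 3 fall for Hoxa3 and Hoxb2, while the line of number 3 runs against number 2 for Hoxb9 and Hoxd13.

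By number, 2 members were higher in fusion in all 3 numbers (Hoxa11 and Hoxa13), where 27.8% of all tested genes were. There were 8 lower in all 3, among them Hoxa2, Hoxa3, Hoxa4, Hoxb2, Hoxb3, Hoxb4 and Hoxd8, where 24.6% were. Each of the 8 had an adjusted p above 0.05 with and without the block. The log2 fold changes ran from -0.65 to -0.27 for Hoxa2 to Hoxa4 and from -0.64 to -0.25 for Hoxb2 to Hoxb4.

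In several HoxB and HoxD genes number 3 differed from numbers 1 and 2. For Hoxb9 the log2 ratio of fusion to EV was 0.93, 0.70 and -1.85 in numbers 1, 2 and 3. For Hoxd13 it was -0.02, 0.37 and -2.04, and for Hoxd11 it was 0.93, 2.05 and -0.84. Hoxb5, Hoxb6, Hoxb8, Hoxd9 and Hoxd10 also had a ratio above 0 in numbers 1 and 2 and below 0 in number 3, and Hoxd4 had 0.13, -0.47 and -1.43. These genes were chosen after their values were seen, and the difference between numbers was not tested. Hoxb9 (log2 0.83, edgeR adjusted p = 0.00698) and Hoxd11 (1.51, adjusted p = 0.0327) passed beside Hoxa13 in the blocked fit on numbers 1 and 2, where 19% of all tested genes passed. Over the 3 numbers with the block, Hoxb9 came to 0.03 (adjusted p = 0.982) and Hoxd11 to 0.84 (adjusted p = 0.382). The libraries numbered 3 came from other lanes than the rest (5 and 6), EV from lane 1 and fusion from lane 2. Within number 3, group and lane therefore cannot be told apart. These libraries also had the highest shares of reads with several alignments, 45.32% in EV and 44.78% in fusion. The part of lane or alignment in these ratios was not tested.

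**Figure D4:**
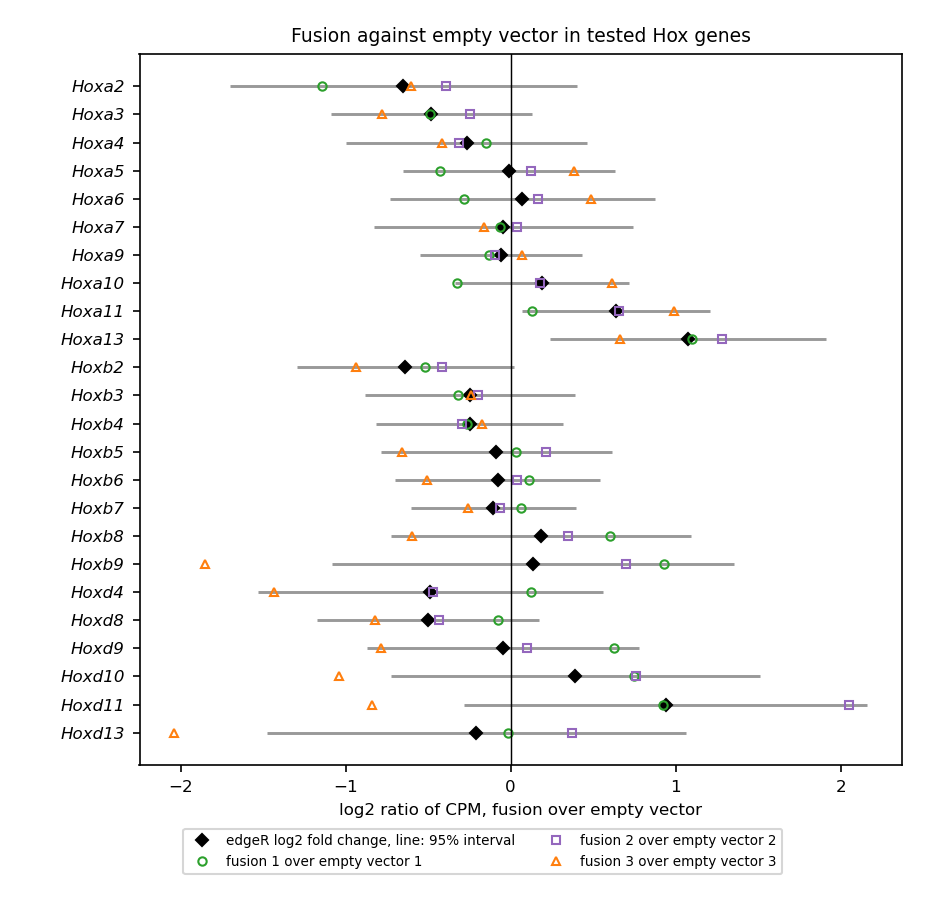
Log2 ratio of fusion to EV for 24 of the tested Hox genes: the edgeR log2 fold change (black diamond) with its 95% interval (line) and the CPM ratio of each replicate number (open symbols). The intervals of Hoxa11 and Hoxa13 lie above 0 before adjustment, and number 3 (orange triangles) lies farthest left at Hoxd13 (-2.04) and Hoxb9 (-1.85).

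How much change the data could hold differed by gene. For 12 of the 25 members the 95% interval of the unpaired log2 fold change lay within -1 to 1, including Hoxa5, Hoxa7, Hoxa9, Hoxa10, Hoxb6 and Hoxb7. Hoxa9, for example, had 73.9 ± 13.4 CPM in EV and 70.9 ± 9.99 in fusion, a log2 fold change of -0.06 with an interval of -0.55 to 0.43. The interval was widest for Hoxd13, from -1.48 to 1.06.

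Both vector groups were also set against the WT library. It is a single library, whose spread was taken to equal that of EV and fusion. The comparisons with WT have it in common, and they share libraries with the comparison of fusion and EV, so each gene's values are given side by side. For EV against WT edgeR called 0 of the 25 members and 0% of all tested genes, with 0 members and 4.46% of all genes at an unadjusted p under 0.05. DESeq2 called 0 members and 0.46% of all genes. For fusion against WT edgeR called 0 of the 25 and 0.436% of all genes, with 1 member, Hoxd8, and 7.67% of all genes at an unadjusted p under 0.05. DESeq2 called 0 members and 2.98% of all genes there.

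Hoxb9 and Hoxd13 had the largest fitted differences from WT among the 25 members, in EV and in fusion. Hoxb9 had 20.4 CPM in WT against 8.85 ± 3.18 in EV and 9.67 ± 6.19 in fusion, log2 fold changes of -1.21 and -1.07. Hoxd13 went the other way, with 1.14 CPM in WT against 3.50 ± 0.631 in EV and 3.003 ± 2.24 in fusion, log2 fold changes of 1.61 and 1.41. Hoxd8 had 26.3 CPM in WT against 19.0 ± 6.92 in EV and 13.4 ± 1.51 in fusion, log2 fold changes of -0.47 and -0.97, the latter with an edgeR adjusted p of 0.579. For Hoxd8, WT lay barely above the highest EV library, which also rounds to 26.3 CPM, and well above each fusion library.

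WT lay above every EV library in 7 members, where 22.7% of all tested genes did, and below every EV library in 10, where 21.6% did. The 7 were Hoxa10, Hoxa11, Hoxa13, Hoxb6, Hoxb8, Hoxb9 and Hoxd8, and the 10 included Hoxa2, Hoxa3, Hoxa9, Hoxb2, Hoxb3, Hoxb4, Hoxd4, Hoxd10 and Hoxd13. Against fusion, WT lay above every library in 6 members, where 22.7% of all genes did, below every library in 2, where 23.8% did, and within the range of fusion in 17. For Hoxa13 the log2 fold change from WT was -0.73 in EV and 0.34 in fusion, and for Hoxa11 it was -0.27 and 0.36, so the WT value lay between the group means for both genes. The next largest differences of EV from WT were those of Hoxa2 (1.06) and Hoxd4 (0.97), and of fusion from WT those of Hoxd10 (1.01) and Hoxd8.

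**Figure D5:**
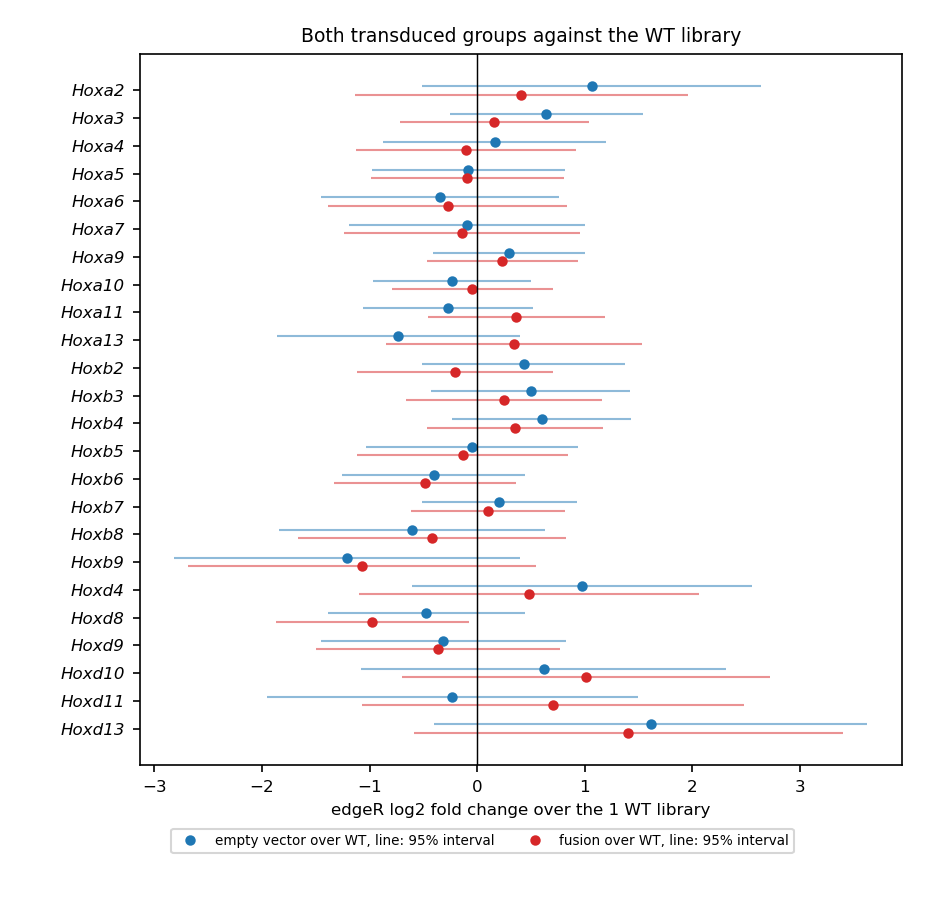
Log2 fold change of EV (blue) and fusion (red) over the 1 WT library for 24 of the tested Hox genes, with 95% intervals from edgeR; both colours share the WT library. Of the 48 intervals that of Hoxd8 in fusion alone leaves out 0, before adjustment, and Hoxb9 and Hoxd13 lie farthest from 0, on opposite sides.

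Proteins and pathways that act with or on Hox genes were read from lists, and by edgeR without the block 0 of the tested members of each of these lists passed between fusion and EV, where 2.04% of all tested genes did. Calls with the block stand beside 13.1% of all tested genes. All 9 TALE cofactors, the PBX, MEIS and PKNOX proteins that bind DNA together with Hox proteins, were tested. With the block Pbx4 rose (log2 1.06, adjusted p = 0.0195) and Pbx3 fell by 0.57 on the log2 scale (adjusted p = 0.0142). Of 28 Polycomb genes, whose products keep Hox genes silent, all were tested; Rbbp7 was the highest at a median of 88.9 CPM per kb, and with the block Cbx2 fell (log2 -0.46, adjusted p = 0.0478). Of 17 tested Trithorax and related genes, which keep Hox genes active, Psip1 was the highest at 44.0, and with the block Mllt1 rose. All 9 genes of insulation and cohesin were tested, led by Rad21 at 132 CPM per kb, and 0 passed with the block.

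Retinoic acid is a classic inducer of anterior Hox genes, and 14 of 20 genes of its pathway were tested. Crabp1, which binds retinoic acid in the cytoplasm, was the highest at 92.4 CPM per kb. With the block Rdh10, which makes retinal for retinoic acid synthesis, and Dhrs3, which turns retinal back to retinol, rose by log2 0.97 (adjusted p = 0.00547) and 1.47 (adjusted p = 0.0205). The receptor Rarg and the carrier Crabp2 fell by 0.59 (adjusted p = 0.0214) and 2.83 (adjusted p = 0.00692) on the log2 scale. Crabp2 ranged over 13.8 to 47.0 CPM in EV and 1.23 to 7.05 in fusion, with 8.18 in WT. The part of these genes in the Hox values was not tested.

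Of the genes that flank the clusters and the related Evx and ParaHox genes 8 were tested, led by Mtx2 beside HoxD at 30.7 CPM per kb, and 0 passed with the block. Evx2, Cdx4, Gsx1, Gsx2 and Pdx1 had 0 reads. Of the noncoding genes of the clusters 8 were tested, led by Hoxa11os at 13.1 CPM per kb, and 0 passed with the block. Hotairm1, at the anterior end of HoxA, lay at 1.64 to 2.91 CPM per kb. Of 14 other homeobox genes of mesenchyme and prostate 8 were tested, led by Prrx1 at 49.0 CPM per kb, and with the block Tshz1 and Tshz2 rose.

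Markers of other cell types were read beside these results. Between fusion and EV 2.04% of all tested genes passed by edgeR without the block (1.69% higher), and 13.1% with it. Of the prostate epithelial list 9 were tested and Krt18 and Foxa1 rose by edgeR, Foxa1 from 0 reads in each EV library to 0.411 to 2.13 CPM. Foxa1 thus passed the low-count filter through the fusion libraries alone, where it was high, and its call is no separate support. With the block Cdh1 also rose (log2 1.53, adjusted p = 0.0220) and Krt19, the highest of the list at a median of 20.5 CPM per kb, fell by 1.68 on the log2 scale (adjusted p = 0.0436). Of the neuroendocrine list 4 were tested and Insm1 and Scg2 rose; the summed list was 9.54 CPM in WT, 13.8 to 28.2 in EV and 12.5 to 27.04 in fusion. Of the immune list 3 of 8 were tested and Cd14, the highest of the list at a median of 17.7 CPM per kb, rose. Only 1 of the 8 was on in all 7 libraries. The summed list was 32.0 CPM in WT, 30.1 to 32.9 in EV and 62.2 to 88.2 in fusion, with Cd3e and Adgre1 at 0. The endothelial list, with 1 gene tested and 0 called, summed to 1.16, 0.591 to 0.963 and 0.898 to 0.989 CPM. The calls of Krt18, Foxa1, Scg2 and Cd14 were all lost without EV replicate 2 (adjusted p = 0.138, 0.0614, 0.116 and 0.128) and without fusion replicate 2 (0.0857, 0.0765, 0.0662 and 0.0857). The calls of Krt18, Scg2 and Cd14 were also lost without EV replicate 1, those of Krt18, Foxa1 and Scg2 without fusion replicate 1, and that of Scg2 without fusion replicate 3. The part of these lists in the Hox results was not tested.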

How the data were processed

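The submitters' processing notes name STAR, HTSeq and the build GRCm38 for the authors' processing. The deposited values are whole-number read counts per gene, 1 table per lane. The sources used here give no versions, annotation release or strand setting. Reads with several alignments (36.1 to 45.32%) stand in a row of their own and stayed out, as did other rows that name no gene (outside genes 5.726 to 6.927%, ambiguous 1.222 to 1.479%), so reads of near-identical paralogs can be missing. Lanes (12 tables) were summed to 7 libraries. Lanes of 1 library differed by about the sampling noise and were counted as 1 sample (chi-square over its degrees of freedom 0.981 to 1.01), and replicates differed by more (98.8 to 283).

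Symbols (46091 of 46603 rows) come from a list of gene names by Ensembl id, or from GENCODE M21 where that list had none. Positions and exon lengths come from GENCODE M21. Fusion and EV were compared by edgeR 4.0.16 in R 4.3.3 (TMM, filterByExpr with a minimum count of 10, robust quasi-likelihood F test, Benjamini-Hochberg over 16731 genes, threshold 0.05) on 6 libraries, and WT on all 7 over the same genes. DESeq2 1.42.0, other normalization, no filter, non-robust dispersions, left-out libraries, lanes and a replicate block were alternatives. The groups share replicate numbers. Deviations from group means correlated over genes at r = 0.509, 0.462 and 0.431 within numbers 1, 2 and 3. Between numbers r was -0.0496 to -0.405, which is not separate support, because deviations from a group mean cancel within the group. The block by number rests on these correlations in the same libraries, and no label names a shared day. The edgeR fit without the block was tested on counts simulated with the same dispersion for all genes, and the blocked fit was not tested in this way. That dispersion was lower than the one fitted to these libraries, so the simulated counts varied less than the real ones. Limits for 0 counts cover counting error only, and the 95% intervals of fold changes come from the edgeR fit.

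The members and lists were chosen with earlier results of these data known. The rule for named genes gives values for every Hox gene on in a library or called, for the prostate-related Hoxa10, Hoxa13, Hoxb13 and Hoxd13, and per list the called genes and the highest gene; other genes named were chosen after their values were seen. Some genes of the series, among them members and genes of the lists, are not reported here by name.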

Additional observations from a re-analysis of the deposited data

How the results depend on the processing

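The count of 0 Hox genes called held in each comparison under DESeq2, DESeq2 size factors, no filter, non-robust dispersions and each left-out library; for fusion against EV it was 1 with the replicate block (Hoxa13), 3 on numbers 1 and 2 with the block (Hoxa13, Hoxb9, Hoxd11), 3 on numbers 2 and 3 with the block (Hoxa11, Hoxa13, Hoxd8 lower) and 0 on numbers 1 and 3 with the block; the last 2, and the count of genes on over the longest transcript, were chosen after seeing the data. The block changed no other Hox call. Genes called over all tested genes numbered 341 for fusion against EV, and 922 by DESeq2, 530 without the filter, 2196 with the block, 3200 on numbers 1 and 2 and 1537 on numbers 2 and 3 with the block, and 133 to 384 with a library left out (133 without EV replicate 2, 196 without fusion replicate 1 and 148 without fusion replicate 2). For EV against WT the count was 0, and 77 by DESeq2, 15 without the filter and 0 to 5 with a library left out (5 without fusion replicate 3). For fusion against WT it was 73, and 498 by DESeq2, 245 without the filter and 1 to 118 with a library left out (1 without fusion replicate 2, 16 without fusion replicate 1, 25 without EV replicate 2 and 118 without EV replicate 3). The cause was not tested.

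At 2 CPM per kb, 13 Hox genes were on in EV replicate 2, 12 in EV replicate 3 and 11 in fusion replicate 1. Without TMM the WT sums were 107 for HoxA, 35.5 for HoxB and 11.9 for HoxD. Over the longest transcript, which has fewer bases than all exons, HoxA was 135 in WT and 122 in EV, and HoxB 40.7 in WT.

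Signs turned for log2 fold changes that had not passed the test in the comparison as reported. With a library left out, fusion against EV ran from -0.21 to 0.19 for Hoxa5, -0.17 to 0.31 for Hoxa6, -0.27 to 0.21 for Hoxa7, -0.18 to 0.0885 for Hoxa9 and -0.0217 to 0.37 for Hoxa10. It ran from -0.34 to 0.11 for Hoxb5, -0.27 to 0.13 for Hoxb6, -0.24 to 0.0609 for Hoxb7, -0.20 to 0.46 for Hoxb8, -0.38 to 0.55 for Hoxb9, -0.32 to 0.14 for Hoxd9 and -0.90 to 0.22 for Hoxd13. EV against WT ran from -0.26 to 0.12 for Hoxa5, -0.22 to 0.12 for Hoxa7, -0.0742 to 0.0478 for Hoxb5 and -0.0357 to 0.0677 for Cd14. Fusion against WT ran from -0.37 to 0.0414 for Hoxa4, -0.30 to 0.11 for Hoxa7, -0.26 to 0.12 for Hoxa10, -0.0988 to 0.57 for Hoxa13 and -0.38 to 0.0645 for Hoxb5. On numbers 1 and 2 without and with the block, fusion against EV was -0.0497 and -0.0443 for Hoxa6, 2.6e-06 and 0.00032 for Hoxa7, -0.0464 and -0.0579 for Hoxa10, 0.14 and 0.14 for Hoxb5, 0.0857 and 0.0905 for Hoxb6, 0.0065 and 0.012 for Hoxb7, 0.31 and 0.36 for Hoxd9, and 0.23 and 0.20 for Hoxd13. On numbers 2 and 3 with the block it was 0.20 for Hoxa5, -0.15 for Hoxb8, -0.54 for Hoxb9 and -0.0040 for Hoxd10, and on numbers 1 and 3 it was -0.41 for Hoxb9. With the replicate block and all numbers it was 0.019 for Hoxa5. The depth of fusion replicate 3, 26368182 reads, limits the least abundant members most, such as Hoxd4, Hoxd10 and Hoxd11.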
